A study of Homo sapiens with 21 samples.

Results

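Gene expression was compared between Hs578T cells given 1 µM nilotinib together with 0.1 µM THZ531 and cells given 1 µM nilotinib alone, so that the difference is what the low dose of THZ531 did under nilotinib. Hs578T cells are a long-used line of triple-negative breast cancer with mesenchymal features. The comparison used 6 of the 21 libraries of the series, chosen by the treatment in their labels, and 16036 of the 28395 genes counted passed the filter on low counts. RNA was taken 8 h after treatment. The other groups were DMSO, 0.1 µM THZ531, 3.16 µM lapatinib, 3.16 µM lapatinib with 0.1 µM THZ531, and 1 µM THZ531, each with 3 libraries. The series holds a single cell line and a single time, and the study describes the replicates as independent experiments.

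THZ531 inhibits CDK12 and CDK13, kinases that pair with cyclin K and phosphorylate the C-terminal domain of RNA polymerase II while it elongates transcripts. Loss of CDK12 activity is known for premature cleavage at intronic polyadenylation sites and for lower expression of long DNA repair genes. Nilotinib is a tyrosine kinase inhibitor made against BCR-ABL, and it also binds the efflux pump ABCG2. The counts are per gene, so transcript ends cannot be seen in them.

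The 6 libraries held 101967991 to 108180338 counts each, and levels are given as CPM, the count divided by library depth after TMM scaling (trimmed mean of M-values). Means of the mesenchymal markers under nilotinib ran from 24.2 CPM for TWIST1 to 7476 CPM for VIM. Of 8 epithelial and hormone receptor markers, 4 stayed under 1 CPM in every nilotinib and combination library. The others, KRT18, ERBB2, KRT8 and GATA3, were expressed, at means of 87.7, 39.2, 23.6 and 16.6 CPM under nilotinib. Of the leukocyte markers CD3E, CD14 and ITGAM were under 1 CPM in both groups, and PTPRC reached 0.838 CPM under nilotinib and 2.29 CPM in the combination. Nilotinib replicate 1 stood apart from the other nilotinib libraries in genes of the ATF4 stress response, with the highest value of the 3 for 39 of 40 listed genes. It was highest for 41.2% of all genes tested. It was also highest for 11 of the 13 mitochondrially encoded mRNAs, which are used as a scale below, and for most ribosomal and oxidative phosphorylation genes. ATF4 itself was at 261 CPM in that library and at 115 and 118 CPM in the others. Results that rest on it are given with and without it. TMM takes most genes as unchanged, and the median log2 FC over all genes shifted by -0.44 when libraries were scaled to the 13 mitochondrially encoded mRNAs, by -0.28 with library size alone and by 0.14 with upper-quartile scaling. Changes below are relative to the TMM scale. A fall in RNA per cell across all genes, or a smaller number of cells, cannot be told apart from no change on this scale. The p-values weigh each difference between group means against the spread between replicate libraries, estimated from all 21 libraries of the series.

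Adding THZ531 to nilotinib lowered 3211 genes and raised 1092 by more than 1 on the log2 scale (edgeR quasi-likelihood test, adjusted p under 0.05). These are 20% and 6.81% of the genes tested, and 74.6% of the called genes were lower. Without the limit on size, 5885 genes (36.7%) were lower and 5388 (33.6%) higher. Among 13747 protein-coding genes, 2909 were lower and 605 higher beyond that limit. With scaling to mitochondrially encoded mRNAs the split was 4932 lower and 617 higher, or 88.9% lower, and with library size alone 84.9% were lower.

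KRCC1, which encodes a lysine-rich coiled-coil protein, had the largest fall of the protein-coding genes named by the rule in the processing section. It was at 42.5, 36.5 and 36.5 CPM under nilotinib and at 1.38, 1.47 and 1.39 CPM in the combination, a log2 FC of -4.77 ± 0.13 (SE; edgeR, adjusted p = 2.83e-16). CREB1, a transcription factor activated by cAMP signalling, was at 56.8, 54.0 and 53.7 CPM against 4.36, 3.64 and 4.33 CPM (log2 FC -3.74 ± 0.13, edgeR, adjusted p = 5.87e-15). ZC3H4, a zinc finger protein that restrains extragenic transcription, was at 29.2, 40.8 and 41.1 CPM against 2.01, 2.38 and 3.18 CPM (log2 FC -3.88 ± 0.24, edgeR, adjusted p = 2.1e-11). The rule that chose these genes required all combination libraries to lie beyond all nilotinib libraries, as 37.9% of all genes tested did below and 34.9% above, so nothing is read from their separation. CREB1 overlaps METTL21A, whose reads are not separated from its own. ZNF609, WBP1L, SLC66A1, SMCR8 and LYSMD3 completed the 8 falls chosen, with log2 FC between -4.19 and -3.55.

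JUNB, an AP-1 transcription factor of the immediate-early response, had the largest of the 8 rises chosen by the same rule. It was at 33.2, 32.1 and 32.9 CPM under nilotinib and at 233, 222 and 221 CPM in the combination (log2 FC 2.78 ± 0.07, edgeR, adjusted p = 1.25e-16). ID2, an inhibitor of helix-loop-helix transcription factors, was at 27.6, 29.1 and 28.7 CPM against 179, 183 and 191 CPM (log2 FC 2.69 ± 0.09, edgeR, adjusted p = 4.54e-15). SGK1, a kinase of glucocorticoid and insulin signalling, was at 42.2, 42.2 and 43.1 CPM against 214, 207 and 204 CPM (log2 FC 2.29 ± 0.06, edgeR, adjusted p = 2.84e-16). These 3 rises were uniform across libraries. The matricellular gene CCN2 was at 183, 153 and 156 CPM against 681, 788 and 774 CPM (log2 FC 2.19 ± 0.09, edgeR, adjusted p = 7.56e-14). TXNIP, which binds thioredoxin and restrains glucose uptake, was less uniform, at 3.32, 14.8 and 14.6 CPM against 37.2, 49.5 and 55.6 CPM. Its log2 FC was 2.12 ± 0.33 and was 1.69 ± 0.18 without nilotinib replicate 1 (edgeR, adjusted p = 1.11e-05 and 1.6e-07). DIPK2A, ARGLU1 and IER5L completed the 8 rises. JUNB overlaps HOOK2.

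**Figure D1:**
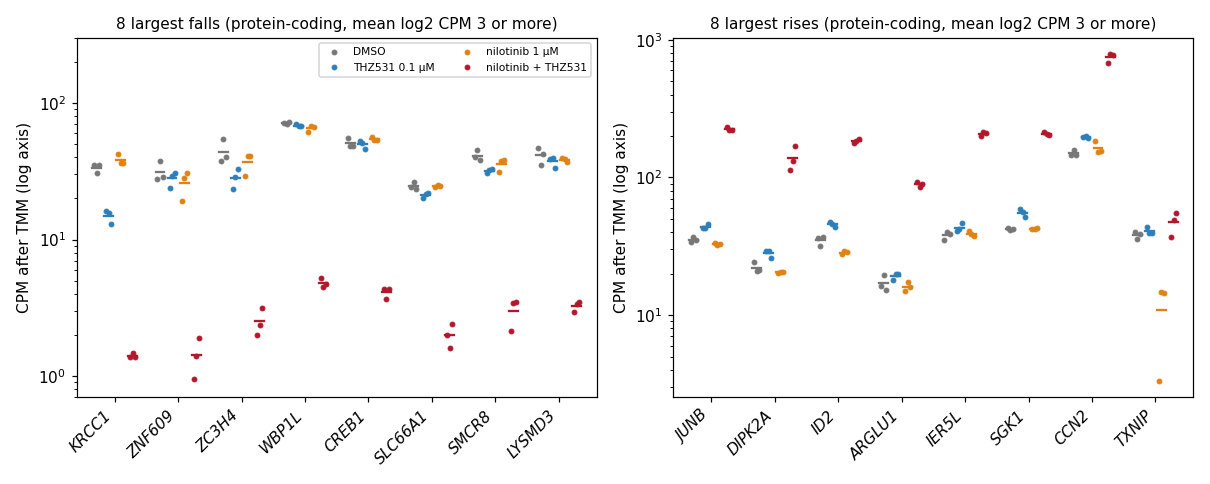
CPM after TMM scaling (log axis) of the 8 largest falls and the 8 largest rises among protein-coding genes whose log2 CPM averaged 3 or more and whose groups did not overlap, with 1 point per library and a bar at the mean of 3 libraries, in DMSO, 0.1 µM THZ531, 1 µM nilotinib and the combination. The combination libraries of KRCC1 sit between 1.38 and 1.47 CPM and those of JUNB between 221 and 233 CPM.

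Promoter letters of raised and lowered genes were compared next. RefSeq (GRCh38.p14) gave the window from 250 bases before to 50 bases after the start for 11211 of 13747 protein-coding genes tested. In all, 12 motifs were searched on both strands, some of them overlapping, and the 2 shown here were chosen after their shares were seen, so the shares are a description. TATAAA was in 13.4% of the 441 windows of genes raised by more than 1, 4.68% of the 2415 windows of lowered genes and 6.30% of all windows. CGGAAGT, the core bound by ETS factors, was in 4.99% of the raised, 15.0% of the lowered and 12.8% of all windows. Of the 8 rises chosen above 3 held TATAAA, and none of the 8 falls did. The stretches below are the 60 bases before the start, with the motif in capitals, and are shown for the named genes whose motif lies there. The third TATAAA gene, SGK1, has it outside that stretch. They lie at chr19:12791426-12791485 on the plus strand (JUNB), chr6:131951373-131951432 on the minus strand (CCN2) and chr17:18315233-18315292 on the plus strand (SMCR8).

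JUNB: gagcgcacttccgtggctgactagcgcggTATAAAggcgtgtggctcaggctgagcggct

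CCN2: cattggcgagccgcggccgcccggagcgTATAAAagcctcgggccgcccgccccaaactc

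SMCR8: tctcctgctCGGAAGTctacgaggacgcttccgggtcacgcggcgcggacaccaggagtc

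The TATAAA motif starts 31 bases before the start in JUNB and 32 bases before it in CCN2. JUNB, a raised gene, also holds the ETS letters on the other strand.

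Of the targets of THZ531, CDK12 mRNA fell, from 36.5, 47.3 and 49.8 CPM to 14.1, 16.8 and 18.7 CPM (log2 FC -1.43 ± 0.14, edgeR, adjusted p = 2.9e-08). CDK13 had a log2 FC of -0.31 ± 0.17 (adjusted p = 0.11), and passed the test without combination replicate 3 (-0.45, adjusted p = 0.0376), with library size alone (-0.59, adjusted p = 0.00548) and with mitochondrial scaling (-0.77, adjusted p = 9.76e-05). CCNK, the cyclin of both kinases, had a log2 FC of 0.35 ± 0.12 (edgeR, adjusted p = 0.0143), which missed the threshold without any one of nilotinib replicate 1 and combination replicates 2 and 3 (0.27 to 0.31, adjusted p = 0.0548 to 0.0789) and was -0.10 with scaling to mitochondrially encoded mRNAs. Over the 19 transcriptional CDK and cyclin genes listed, 6 fell (31.6%), 5 rose (26.3%) and 8 did not pass the test (median -0.067). List counts here and below stand beside 36.7% lower and 33.6% higher over all genes tested. The shares of this list were near those. With library size alone 11 fell and 2 rose, and with mitochondrial scaling 12 fell and 1 rose (median -0.50), while the median was 0.069 with upper-quartile scaling. MEPCE, which caps the 7SK RNA that holds P-TEFb inactive, fell by 2.0 on the log2 scale, and HEXIM1, the protein inhibitor in the same complex, rose by 1.07.

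Of 31 genes for RNA polymerase II and its elongation factors, 17 rose and 8 fell, with a median log2 FC of 0.30. POLR2A, the largest subunit, was at 159, 203 and 208 CPM under nilotinib and at 361, 547 and 599 CPM in the combination (log2 FC 1.40 ± 0.19, edgeR, adjusted p = 2.05e-06). POLR2D, a subunit of the polymerase stalk, fell by 1.78. With scaling to mitochondrially encoded mRNAs 14 genes of this list fell and 2 rose (median -0.16), so its direction depended on the scale. Of 23 genes for cleavage and polyadenylation, 15 fell and 6 rose (median -0.61). CSTF2T fell by 2.99 and CPSF7, a subunit of cleavage factor I, fell by 2.38, while CPSF6 of the same factor rose by 1.04 and XRN2, the exonuclease that ends transcription, rose by 0.68. The rise of XRN2 did not pass with mitochondrial scaling (0.23, adjusted p = 0.166).

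Of 33 genes for homologous recombination and the Fanconi anemia pathway, 25 fell and 5 rose, beside 36.7% lower and 33.6% higher over all genes, with a median log2 FC of -1.03. SLX4, a scaffold of structure-specific nucleases, was at 12.9, 16.9 and 17.2 CPM under nilotinib and at 0.929, 1.00 and 1.42 CPM in the combination (log2 FC -3.81 ± 0.24, edgeR, adjusted p = 2.48e-11). BLM, a RecQ helicase, fell by 2.64 and BRCA1 by 1.39. FANCA rose by 0.81. It had risen by 0.70 with 0.1 µM THZ531 against DMSO, and the difference between the 2 settings did not pass the test (0.11 ± 0.09, edgeR, adjusted p = 0.303). Of 26 genes for DNA damage signalling and checkpoints, 20 fell and 3 rose (median -0.68). ATRIP, the partner that brings ATR to single-stranded DNA, was at 17.7, 18.1 and 18.7 CPM against 2.15, 1.56 and 1.94 CPM (log2 FC -3.27 ± 0.10, edgeR, adjusted p = 1.19e-15). ATRIP overlaps TREX1, and reads of the 2 cannot be told apart. ATM, the kinase that responds to double-strand breaks, rose from 51.4, 51.4 and 51.3 CPM to 91.5, 87.8 and 96.4 CPM (log2 FC 0.84 ± 0.07, edgeR, adjusted p = 1.74e-09). With 0.1 µM THZ531 and no nilotinib it had a log2 FC of -0.41, and the difference between settings was 1.25 ± 0.10 (edgeR, adjusted p = 2.18e-09).

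Of 31 genes for G1/S transition and replication, 16 fell and 8 rose (median -0.25), against 21 and 1 with mitochondrial scaling. CCNE2, a cyclin that drives S phase entry, fell by 2.46 and ORC2, of the origin recognition complex, fell by 1.98, while the sliding clamp PCNA rose by 0.90 and the CDK inhibitor CDKN1A by 0.69. The rise of CDKN1A did not pass with mitochondrial scaling (0.24, adjusted p = 0.149). Of 20 BCL2 family and survival genes, 12 fell and 6 rose, against 12 and 1 with mitochondrial scaling. BIRC3, an inhibitor of apoptosis, fell by 2.1 and BCL2 by 1.79. MCL1, a short-lived survival factor, was at 272, 263 and 268 CPM against 151, 183 and 184 CPM (log2 FC -0.63 ± 0.12, edgeR, adjusted p = 8.52e-05). The pro-apoptotic BCL2L11 rose by 1.01. MYC rose, from 94.3, 78.0 and 77.5 CPM to 144, 153 and 157 CPM (log2 FC 0.86 ± 0.08, edgeR, adjusted p = 2.19e-08), and MLX of the same network fell by 2.19. Among the 11 genes of the MYC network, 4 fell (36.4%) and 3 rose (27.3%), near the 36.7% and 33.6% over all genes (median -0.31). With library size alone 6 fell and 3 rose, and with mitochondrial scaling 7 fell and 2 rose (median -0.78).

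Of 29 immediate-early genes, 13 rose and 4 fell, and all 13 rises exceeded 1. The median of the list was 0.17, and it was -0.26 with mitochondrial scaling and -0.11 with library size alone, where 12 and 11 genes fell and 13 rose. FOS, the partner of JUN proteins in AP-1, was at 0.814, 1.06 and 0.907 CPM against 11, 10.4 and 8.68 CPM (log2 FC 3.43 ± 0.23, edgeR, adjusted p = 4.86e-11). FOSL1, another FOS family member, fell by 1.70, and NR4A1, an orphan nuclear receptor, by 1.90. Of 440 ZNF genes, mostly transcription factors with zinc fingers, 342 fell and 31 rose, with a median log2 FC of -1.49. ZNF440 was at 5.54, 6.46 and 6.36 CPM against 0.227, 0.216 and 0.275 CPM. ZNF652 rose by 1.58.

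Genes of the ribosome and of mitochondrial respiration were mostly higher on the TMM scale. Of 83 cytosolic ribosomal protein genes 80 rose and 1 fell (median 0.57), of 54 nuclear genes of oxidative phosphorylation 51 rose and 0 fell (median 0.59), and all 13 mitochondrially encoded mRNAs rose (median 0.45). Their medians were close to one another, and with scaling to the mitochondrially encoded mRNAs 2 ribosomal genes rose, 2 fell, and 2 oxidative phosphorylation genes rose. In nilotinib replicate 1 all 54 oxidative phosphorylation genes and 74 of the 83 ribosomal genes were at the highest value of the 3 nilotinib libraries. Without that library 51 and 80 rose. Of 39 replication-dependent histone genes, a family of near-identical copies whose counts are uncertain, 26 rose and 0 fell (median 1.09), and 15 still rose with mitochondrial scaling. The libraries were selected for polyA tails, so these counts cover only histone RNA captured that way and need not follow total histone mRNA. The largest gains in CPM were in ACTB, GAPDH and COL1A1. ACTB was at a log2 FC of 0.56 ± 0.04 (edgeR, adjusted p = 4.79e-10) and at 0.12 with mitochondrial scaling (adjusted p = 0.342). COL1A1 was at 0.59 (edgeR, adjusted p = 0.0159), and missed the threshold without any one of nilotinib replicate 1 and combination replicates 2 and 3 (0.43 to 0.54, adjusted p = 0.0522 to 0.0939), with library size alone (0.31, adjusted p = 0.199) and with mitochondrial scaling (0.12, adjusted p = 0.566). Among the 3 largest losses were NRP1, a semaphorin and VEGF co-receptor, and EIF5, a translation initiation factor. NRP1 was at 463, 506 and 513 CPM against 166, 178 and 185 CPM (log2 FC -1.49 ± 0.07, edgeR, adjusted p = 3.17e-13).

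Of 32 extracellular matrix genes and YAP or TGF-beta targets, 15 rose and 4 fell, among them CCN1, which rose by 1.21, and AMOTL2, which fell by 1.26. The median was 0.42, and -0.029 with mitochondrial scaling, where 2 rose and 5 fell. Of 22 sterol and fatty acid genes, 11 rose and 7 fell. MVK of the mevalonate pathway fell by 2.50, while SREBF2, a regulator of that pathway, rose by 0.74. MVK overlaps MMAB. The median of this list was 0.10, and it was -0.35 with mitochondrial scaling and -0.19 with library size alone. Of 7 ABC efflux transporters 3 rose and 1 fell, and with mitochondrial scaling 0 rose and 3 fell. ABCG2 was at 22.0, 22.3 and 21.3 CPM under nilotinib and at 32.0, 26.7 and 24.7 CPM in the combination, a log2 FC of 0.35 ± 0.12 (edgeR, adjusted p = 0.0128). All combination libraries lay above all nilotinib libraries, as for 34.9% of all genes tested. Without combination replicate 1 the value was 0.23 (edgeR, adjusted p = 0.0961). It was 0.066 with library size alone (edgeR, adjusted p = 0.636) and -0.089 with mitochondrial scaling. Of 6 nilotinib target kinases tested 2 fell (33.3%, near the 36.7% over all genes), ABL2 by 0.90 and PDGFRA by 0.50. PDGFRB was the only 1 to rise (16.7%, beside 33.6% over all genes), by 0.33. Its rise missed the threshold without nilotinib replicate 1 (0.22, edgeR, adjusted p = 0.0846), and the value was -0.13 with mitochondrial scaling.

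**Figure D2:**
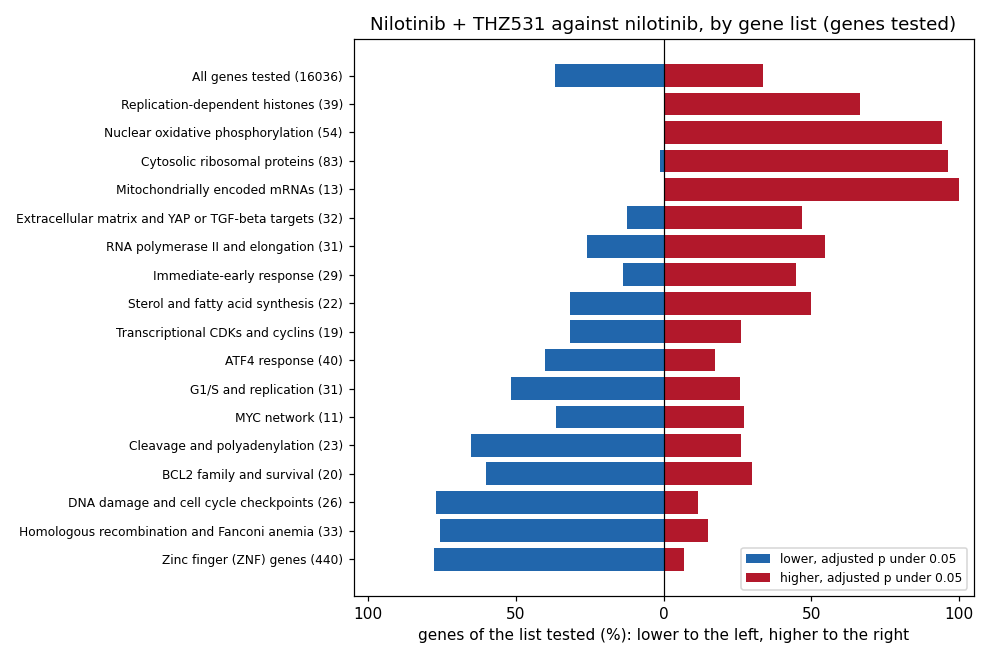
Percentage of the genes tested in each list that were lower (left) or higher (right) in the combination than under nilotinib at an adjusted p under 0.05, with the number tested in brackets and all genes tested at the top. Lists of under 10 genes are not drawn; homologous recombination and Fanconi anemia genes stood at 75.8% lower and ribosomal protein genes at 96.4% higher, beside 36.7% and 33.6% of all genes.

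Length was compared because CDK12 loss is known for its effect on long genes. The 308 protein-coding genes under 2 kb had a median log2 FC of 0.48, with 20.1% higher and 9.74% lower by more than 1. The median was -0.14 for 3613 genes of 20 to 50 kb and -0.16 for 2328 genes of 50 to 100 kb. The median did not continue downward in longer genes, at -0.10 for 1602 genes of 100 to 200 kb and -0.037 for 1097 genes over 200 kb. The share lower by more than 1 was 22.3% at 50 to 100 kb, beside 21.2% of all protein-coding genes tested. That share was 23.8% at 10 to 20 kb and 23.6% at 20 to 50 kb, and was smaller in the classes over 100 kb. The short genes also had lower expression, with a median log2 CPM of 1.53 against 4.34 at 20 to 50 kb, and the part of this in the result was not tested.

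**Figure D3:**
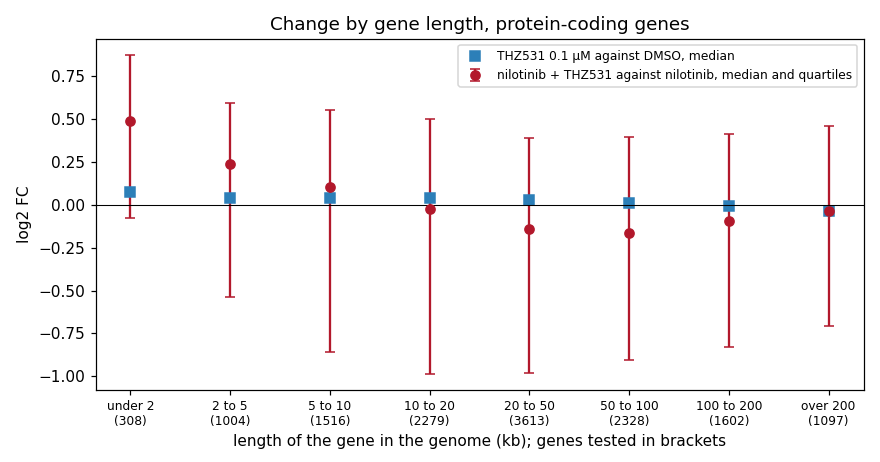
Median log2 FC with quartiles of protein-coding genes by length in the genome (kb) for the combination against nilotinib, and the median for 0.1 µM THZ531 against DMSO. The median runs from 0.48 under 2 kb to -0.16 at 50 to 100 kb and back to -0.037 over 200 kb, and the quartiles of neighbouring classes overlap.

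The same dose of THZ531 without nilotinib changed far fewer genes, 119 lower and 23 higher beyond 1 (0.742% and 0.143% of genes tested). The interaction, which is the effect of THZ531 under nilotinib minus its effect without it, passed for 2855 genes in the lower direction and 884 in the higher (17.8% and 5.51%). For CREB1 the log2 FC was -0.033 without nilotinib and -3.74 with it (difference -3.70 ± 0.17, edgeR, adjusted p = 1.52e-12). For JUNB the values were 0.31 and 2.78 (difference 2.47 ± 0.09, edgeR, adjusted p = 1.7e-13). BRCA1 fell in both settings, by 0.84 and by 1.39 (difference -0.55 ± 0.17, edgeR, adjusted p = 0.00851). KRCC1 fell in both too, by 1.17 and by 4.77. CDK12 went in opposite directions, with a log2 FC of 0.50 without nilotinib and -1.43 with it (difference -1.93 ± 0.20, edgeR, adjusted p = 9.63e-08). Of the 119 genes lowered by THZ531 alone 70 (58.8%) were also lower under nilotinib, beside 20% of all genes tested. These 70 are 2.18% of the genes lowered there. Without DMSO replicate 2 the 119 became 72, and without replicate 2 of 0.1 µM THZ531 it became 79. The 23 became 15 without replicate 1 of 0.1 µM THZ531.

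Set against lapatinib, another tyrosine kinase inhibitor, the effect of THZ531 was of like size. Across 16036 genes the 2 effects, which share no library, had a Pearson correlation of 0.92 and an orthogonal slope of 0.955, as a description, since genes are not independent replicates. Of the 3211 genes lower under nilotinib 2896 (90.2%) were lower under lapatinib, which is 86.4% of the 3351 lowered there (20.9% of genes tested), and 878 of the 1092 higher genes (80.4%) were among the 1319 raised there (8.23%). In edgeR 0 genes differed between the settings at an adjusted p under 0.05, with 830 lower and 750 higher at an unadjusted p under 0.05 and a smallest adjusted p of 0.151. DESeq2 called 116 genes without a limit on size and 0 beyond 1. The 95% interval of the difference lay within 1 in either direction for 74.7% of all genes and for 99.0% of the 8794 whose log2 CPM averaged 3 or more. It did so for 64.5% of the 4303 genes called in the combination against nilotinib.

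THZ531 at 1 µM without nilotinib lowered 3027 genes and raised 925 (18.9% and 5.77%) against DMSO. Doses differ, so the values are given side by side. Its effects had a Pearson correlation of 0.88 across genes with those of 0.1 µM under nilotinib and an orthogonal slope of 1.12. The 2 effects differed by more than 1 for 206 genes in the lower and 153 in the higher direction (1.28% and 0.954%), and the second count ran from 51 without replicate 2 of 1 µM THZ531 to 292 without its replicate 1, and was 283 and 90 without combination replicates 1 and 3. EGR1, an immediate-early zinc finger factor, rose under nilotinib by 1.44, from 5.78, 6.84 and 6.61 CPM to 16.5, 18.6 and 17.1 CPM, and the difference from 1 µM THZ531 was -1.74 ± 0.35 (edgeR, adjusted p = 0.00266). SLC45A3, a membrane transporter gene, fell by 2.47 with a difference of -1.54 ± 0.14 (edgeR, adjusted p = 1.01e-05). MED26, a Mediator subunit, rose by 1.98 with a difference of 1.42 ± 0.25 (edgeR, adjusted p = 0.000877).

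**Figure D4:**
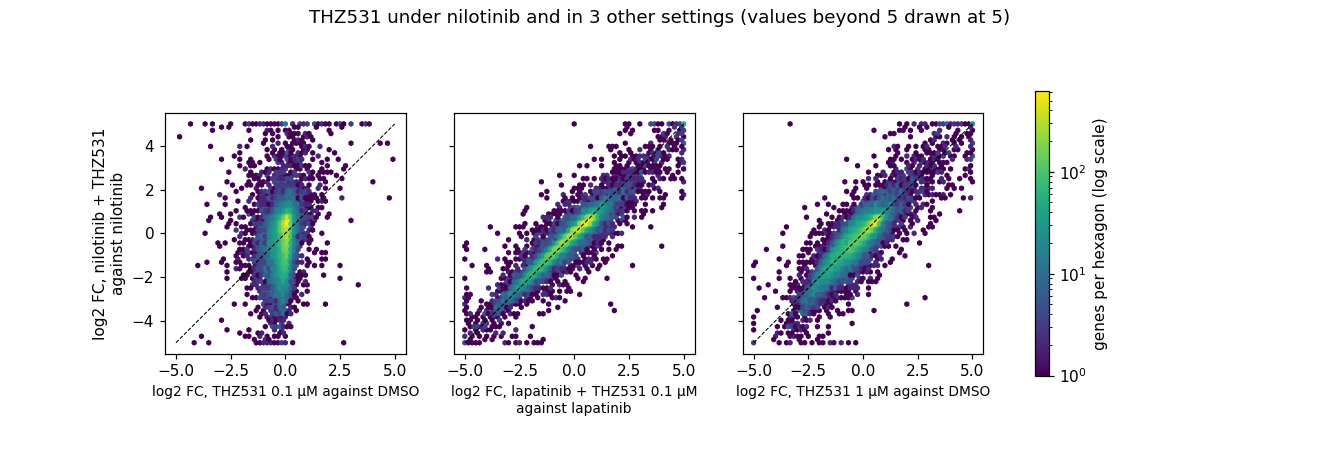
Log2 FC of 16036 genes for the combination against nilotinib (vertical) and for 0.1 µM THZ531 against DMSO, lapatinib with 0.1 µM THZ531 against lapatinib, and 1 µM THZ531 against DMSO (horizontal), with colour for the number of genes per hexagon on a log scale and a dashed line of equality. Pearson correlations were 0.23, 0.92 and 0.88 from left to right, and values beyond 5 are drawn at 5.

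Nilotinib alone raised 22 genes and lowered 11 by more than 0.5 against DMSO (0.137% and 0.0686% of genes tested). These 33 genes were chosen with the nilotinib libraries, which are also the controls of the combination, so the combination against nilotinib is a description for them. Without nilotinib replicate 1 the lists held 7 and 3 genes, all of them among the 22 and 11. Leaving out single DMSO libraries gave 5 to 12 raised and 1 to 5 lowered genes, and 50 and 38 were raised without nilotinib replicates 2 and 3. The lowered count was 7 without replicate 2 of 0.1 µM THZ531 and 18 without replicate 2 of 1 µM THZ531, libraries of groups outside this comparison.

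Of the 22 raised genes, 16 were lower in the combination than under nilotinib, 2 were higher and 4 passed in neither direction, with a median log2 FC of -0.84. Over all genes tested 36.7% were lower and 33.6% higher. Without nilotinib replicate 1 the same 22 genes gave 14 lower and 3 higher. MAP2K6, a kinase that activates p38, was at 1.19, 0.949 and 1.13 CPM in DMSO, 3.13, 2.42 and 3.10 CPM under nilotinib and 1.59, 0.799 and 0.990 CPM in the combination. Its combination libraries overlapped the DMSO libraries. CORO2B, an actin-binding coronin, was at 1.72, 2.32 and 2.37 CPM, then 4.48, 3.90 and 4.58 CPM, then 1.20, 1.11 and 1.12 CPM, and so ended below DMSO. KCNG1, a potassium channel subunit, was at 41.3, 51.3 and 43.8 CPM in DMSO, 108, 67.8 and 67.9 CPM under nilotinib and 22.1, 19.4 and 18.2 CPM in the combination. It ended below DMSO too, and its first nilotinib library stood above the other 2. RAB7B, ADM2 and JDP2 were also lower in the combination than under nilotinib.

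RHOB, a small GTPase of endosomes and stress, was at 36.4, 36.2 and 37.1 CPM in DMSO, 65.0, 53.3 and 54.6 CPM under nilotinib and 176, 191 and 198 CPM in the combination. GADD45A, a stress and growth arrest gene, was at 39.9, 48.0 and 41.2 CPM, then 86.4, 59.2 and 58.3 CPM, then 155, 169 and 173 CPM. Both stood higher in the combination than in either group before it. ATF4 was at 78.1, 86.0 and 80.3 CPM in DMSO and at 121, 122 and 127 CPM in the combination, near nilotinib replicates 2 and 3. Against nilotinib its log2 FC was -0.42 ± 0.20 (edgeR, adjusted p = 0.063), and 0.079 ± 0.079 without nilotinib replicate 1 (adjusted p = 0.386). It passed as a fall without nilotinib replicate 2 (-0.62, adjusted p = 0.00709) or 3 (-0.61, adjusted p = 0.00924), with library size alone (-0.70, adjusted p = 0.00382), with mitochondrial scaling (-0.82, adjusted p = 5.64e-05) and without a filter on low counts (-0.42, adjusted p = 0.0465). FGF1, a growth factor, was at -0.34 and MYO7B, a myosin, at -0.31 (edgeR, adjusted p = 0.0426 and 0.0366). Both missed the threshold without that library (-0.23 and -0.27, adjusted p = 0.212 and 0.116), FGF1 also without nilotinib replicate 3 or combination replicates 2 or 3, and MYO7B without nilotinib replicate 2 or any combination library. IL1RL1, the receptor of interleukin-33, had a log2 FC of -0.028 (adjusted p = 0.87), and 0.11 without nilotinib replicate 1.

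Against 0.1 µM THZ531, a comparison that shares no library with the choice of these genes except through the fit, 10 of the 22 were higher in the combination, 9 lower and 3 neither (median 0.14), beside 34.3% higher and 35.6% lower over all genes. Beyond 1 the combination was lower for 3036 genes (18.9%) and higher for 1047 (6.53%) there, and against DMSO for 3336 (20.8%) and 1048 (6.54%). Against DMSO, which was used in the choice, 9 of the 22 were higher and 9 lower, beside 33.7% and 37.3% over all genes.

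Of the 11 genes lowered by nilotinib, 4 were lower still in the combination, 2 were higher and 5 passed in neither direction. The share lower was near that over all genes tested, where 36.7% were lower and 33.6% higher. ADAMTS5, an aggrecan-cleaving protease, was at 14.3, 15.0 and 14.0 CPM in DMSO, 7.21, 8.82 and 8.28 CPM under nilotinib and 1.98, 2.66 and 2.69 CPM in the combination. CXCL8, a neutrophil chemokine, was at 87.4, 66.5 and 76.1 CPM, then 47.4, 42.7 and 43.5 CPM, then 23.4, 18.7 and 20.2 CPM. THBS1, a matricellular inhibitor of angiogenesis, was at 464, 481 and 454 CPM, then 213, 295 and 305 CPM, then 134, 176 and 200 CPM. In these 3 genes each treatment step lay below the one before, with no overlap. The first step follows from how the genes were chosen. The second, all combination libraries below all nilotinib libraries, was seen in 37.9% of all genes tested. TXNIP and SLIT2 went the other way, and the rise of SLIT2 by 0.52 did not pass with mitochondrial scaling (0.065, adjusted p = 0.728). TXNIP was at 40.3, 35.5 and 38.6 CPM in DMSO and, as given above, between 37.2 and 55.6 CPM in the combination, overlapping DMSO. Against 0.1 µM THZ531, 8 of the 11 were lower, 0 higher and 3 neither (median -1.02), beside 35.6% lower and 34.3% higher over all genes.

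**Figure D5:**
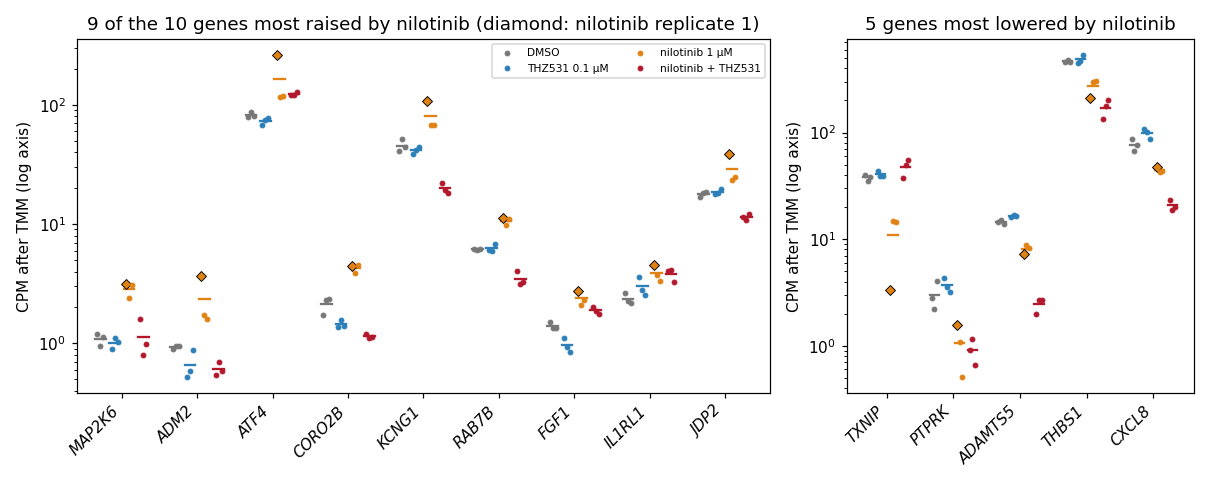
CPM after TMM scaling (log axis) of 9 of the 10 genes most raised and the 5 most lowered by nilotinib, with 1 point per library, a bar at the mean of 3 libraries, and a diamond for nilotinib replicate 1. The diamond stands at 261 CPM for ATF4 beside 115 and 118 CPM, and at 3.32 CPM for TXNIP beside 14.8 and 14.6 CPM.

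Of 40 genes of the ATF4 response, 16 fell (40%) and 7 rose (17.5%) against nilotinib, with a median of -0.23. Over all genes tested 36.7% were lower and 33.6% higher, so the share that fell was near that of all genes. Without nilotinib replicate 1, 13 fell and 13 rose, and the median was 0.056, so the balance of this list rests on that library. It rests on the scaling too, with 26 fallen and 1 risen for library size alone and 28 and 0 for mitochondrial scaling (median -0.65). DDIT3, the stress transcription factor CHOP, was at 20, 9.40 and 8.82 CPM under nilotinib and at 2.79, 2.12 and 1.89 CPM in the combination, and fell with and without that library (log2 FC -2.49 and -2.0, edgeR, adjusted p = 6.95e-08 and 3.92e-08). DDIT3 overlaps MARS1. TRIB3, a pseudokinase induced by DDIT3, fell by 1.60, and by 0.91 without it. DDIT4, an inhibitor of mTORC1, was at 19.8, 6.48 and 7.38 CPM against 11.4, 12.1 and 14.3 CPM. Its log2 FC was 0.17 (adjusted p = 0.605) and became 0.86 without that library (edgeR, adjusted p = 0.000311).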

How the data were processed

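RNA was sequenced from 21 libraries of 7 treatments with 3 replicates each. The authors aligned paired reads to GRCh38 with HISAT2 2.1.0 (per the submitters' processing notes) and deposited raw counts per gene from featureCounts, without normalization. Whether pairs or single ends were counted is not given in the sources used here; among genes with 1 to 20 counts, 61.6% to 66.4% per library were even. The libraries were unstranded, so overlapping genes share reads. Columns were matched by name, and names came from RefSeq GRCh38.p14 for 27745 of 28395 genes (99.98% of counts).

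Counts were filtered with filterByExpr, scaled with TMM and fitted in edgeR 4.0.16 (R 4.3.3, glmQLFit, 1 mean per group, 21 libraries), and p-values were adjusted by Benjamini-Hochberg over 16036 genes. Calls needed an adjusted p under 0.05 with a log2 FC larger than 1 in size (0.5 for nilotinib against DMSO), and lists were counted without a limit on size. A fit was tried on simulated counts, where for the main contrast, fitted on 15746 genes, 103 of 110 genes changed by 2 and 63 of 85 changed by 1 were found. Found here means an adjusted p under 0.05 without a limit on size, and 11 unchanged genes were called too. Few genes were changed in the simulation, in both directions, so it cannot show how the scaling behaves when many genes change. Replicates of the 6 libraries differed by more than sampling noise (chi-square per degree of freedom 7.37 to 127).

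The comparison, gene lists and tests were chosen with earlier results of these data known. Named genes were those with an adjusted p under 0.05, a log2 CPM averaging 3 or more and all 3 combination libraries beyond the nilotinib libraries (8 largest falls and rises among protein-coding genes, 3 and 3 among non-coding), the 3 largest gains and losses in CPM, genes changed by nilotinib, 3 and 3 protein-coding genes for each difference between settings, up to 2 and 2 per list, and 13 genes of the THZ531 and nilotinib literature. List members near 0 CPM are not described, and a few other genes that the rule names are not reported here. Deviations of same-numbered nilotinib and combination libraries correlated at 0.54, 0.20 and 0.54 over 8794 genes. Nilotinib replicate 3 with combination replicate 2 gave 0.33, and nilotinib replicate 2 with combination replicate 3 gave 0.28. Replicate numbers therefore did not clearly mark pairs for replicates 2 and 3. Nilotinib and DMSO libraries of the same number correlated at 0.24, 0.22 and -0.48, and nilotinib replicate 3 with DMSO replicate 2 at 0.47. The main fit has no term for pairing. The replicate block adds one by replicate number in all groups, so it cannot show what true pairing would give, also where DMSO is used.

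The alternatives were other scalings and filters, the replicate block, DESeq2 1.42.0, glmTreat, fits of the compared groups alone, halved counts and leaving out each library. Chosen after seeing the data were the programme without nilotinib replicate 1, the list counts by scaling and the motifs. The authors' fold changes were not used.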

Additional observations from a re-analysis of the deposited data

Results flagged for a closer look

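The effect of 0.1 µM THZ531 differed between cells with and without nilotinib by the interaction test in edgeR. This held for 2855 genes in the lower direction and 884 in the higher at a difference beyond 1. Among protein-coding genes whose log2 CPM averaged 3 or more, the largest differences were -4.03 for ZNF609, -3.70 for CREB1 and -3.70 for WBP1L, and 2.47 for JUNB, 2.41 for DIPK2A and 2.31 for ID2.

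The effect of 0.1 µM THZ531 under nilotinib differed from that of 1 µM THZ531 without it by the same kind of test, for 206 genes in the lower and 153 in the higher direction. Among the same kind of genes the largest differences were -1.74 for EGR1, -1.54 for SLC45A3 and -1.44 for ZNF609, and 1.44 for KAT6A, 1.42 for MED26 and 1.40 for DLC1. KAT6A and DLC1 rose under nilotinib by 0.85 and 0.64, and neither passed the test with scaling to mitochondrially encoded mRNAs (adjusted p = 0.0894 and 0.32).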

How the results depend on the processing

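The main counts of 3211 lower and 1092 higher genes stayed within 1.5 times under most alternatives. Scaling to mitochondrially encoded mRNAs gave 4932 and 617, and the higher count was 521 with at least 10 counts in every library and 557 with glmTreat. For the combination against 0.1 µM THZ531 mitochondrial scaling gave 5507 lower and 501 higher and the count filter 458 higher, and against DMSO 5902 and 493, with 684 higher for library size alone and 491 for the count filter. The interaction gave 4458 and 423 with mitochondrial scaling, and 563 and 549 higher with library size alone and the count filter. The difference from 1 µM THZ531 gave 122 and 240 with mitochondrial scaling. THZ531 at 0.1 µM against DMSO gave 66 lower and 13 higher with the count filter. Nilotinib against DMSO gave 3 higher with mitochondrial scaling, 22 lower and 77 higher with DESeq2, and 7 and 11 in a fit of these 2 groups alone. Members of the gene lists that were higher numbered 314, 197 with library size alone and 58 with mitochondrial scaling. The median of genes under 2 kb minus that of genes of 20 to 50 kb was 0.62, and 0.40 without a filter, 0.56 with the count filter and 0.42 with DESeq2. The causes were not tested.

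Leaving out 1 library gave 3154 to 3252 lower and 1027 to 1136 higher genes for the main contrast, 1 to 18 lower and 5 to 50 higher for nilotinib against DMSO, 2966 to 3087 and 999 to 1087 against 0.1 µM THZ531, 3245 to 3409 and 1001 to 1074 against DMSO, and 72 to 126 and 15 to 25 for 0.1 µM THZ531 against DMSO. It gave 2784 to 2906 and 791 to 907 for the interaction, 0 and 0 for the difference from lapatinib, 185 to 233 and 51 to 292 for the difference from 1 µM THZ531, 476 to 503 lower and 297 to 319 higher list members, and 0.59 to 0.70 for the length difference.

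The replicate block gave 3208 lower and 1078 higher genes in the main contrast, and of 146 named genes it changed the call of 1. Of the 146, 107 kept direction and call under every alternative run. Those that changed sign did so under the following settings. With DESeq2 size factors and with the DESeq2 test these were CYP1B1 (0.032 and 0.031) and IL1RL1 (0.012 and 0.011), and CYP1B1 also with the count filter (0.0084) and halved counts (0.0073). With upper-quartile scaling they were CYP1B1 (0.13), IL1RL1 (0.11) and LPCAT4 (0.060). With library size alone they were CNTNAP5 (-0.27), DDIT4 (-0.11), MTHFD1L (-0.23) and TNFRSF11B (-0.21). With mitochondrial scaling they were ABCG2 (-0.089), ADAMTS1 (-0.14), CCNK (-0.10), CNTNAP5 (-0.43), DDIT4 (-0.22), MTHFD1L (-0.36), PDGFRB (-0.13), SHMT2 (-0.0016) and TNFRSF11B (-0.36). Without single libraries, ATF4 ran from -0.62 to 0.079, CNTNAP5 from -0.049 to 0.056, CYP1B1 from -0.13 to 0.073, DDIT4 from -0.11 to 0.86, IL1RL1 from -0.12 to 0.11, MTHFD1L from -0.054 to 0.28, PTPRK from -0.54 to 0.19 and TNFRSF11B from -0.062 to 0.16.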

Other observations

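Short non-coding RNAs were mostly on the higher side, although libraries selected for polyA tails count them poorly. Of 24 small nuclear RNA genes tested 18 were raised by more than 1 and 0 were lowered, of 49 miRNA genes 27 were raised and 1 lowered, and of 139 small nucleolar RNA genes 48 were raised and 1 lowered. Many of these genes lie inside longer host genes, and unstranded counts do not separate the 2. Of 1405 long non-coding RNA genes 256 were raised and 188 lowered, beside 605 raised and 2909 lowered of 13747 protein-coding genes.

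Among non-coding genes whose log2 CPM averaged 3 or more, those with the largest falls were PRECSIT, at 24.8, 23.1 and 23.9 CPM under nilotinib and 3.45, 3.80 and 3.52 CPM in the combination, EBLN3P, at 50.0, 47.8 and 47.8 CPM against 7.54, 6.95 and 8.17 CPM, and LOC100129034, which overlaps PSMB7, with a log2 FC of -2.77. The largest rises at that level were LOC105371414, which overlaps ANKRD11, with a log2 FC of 2.38, LINC00662, which overlaps LINC02987, with 1.69 and LINC00997 with 1.34. All 6 passed the edgeR test at an adjusted p under 0.05.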
